A study of Saccharomyces cerevisiae with 8 samples.

Results

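The protein genes of the small (40S) subunit of the cytosolic ribosome were followed in budding yeast exposed to zinc, in a pif1 mutant and in the wild type. Members were the table IDs whose standard gene name, matched by locus tag in the R64 yeast annotation, is RPS with a number and an optional A or B, together with ASC1. The annotation names 57 such genes, and 55 of them had a value on at least 1 array, out of 5519 IDs with a value in the table. RPS19A and RPS30A were not analysed here. Of the 55 members, 46 had a value on all 8 arrays, 2 on 7, 3 on 6, 1 on 4 (ASC1), 1 on 2 (RPS10B) and 2 on 1 (RPS16A and RPS22B).

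The small subunit binds messenger RNA and initiator tRNA, finds the start codon and holds the decoding centre, where codon and anticodon are matched. Its proteins cover a folded ribosomal RNA that is divided into a body, a platform and a head, and most of them are encoded in yeast by a pair of nearly identical genes, A and B. Growing yeast spends a large part of its transcription on ribosomal protein genes, which are switched on together by Rap1, Fhl1, Ifh1 and Sfp1 under the TOR and Sch9 kinases, and which are known to fall together in many stresses.

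RNAs were hybridised in pairs on 8 spotted arrays. The RNAs came from the pif1 mutant (pif1::KanMX, a BY4741 strain without the Pif1 DNA helicase) after 60 min in 5 mM ZnCl2, from pif1 without zinc, from BY4741 wild type (WT) after the same zinc treatment, and from WT without zinc. All cultures had grown at 28 °C in YPD rich medium to an A660 of 0.6. Each of the 4 comparisons (zinc in pif1, zinc in WT, pif1 over WT with zinc, pif1 over WT without zinc) had 2 arrays with exchanged dyes, numbered replicate 1 and 2. The labels do not say that the numbers stand for separate cultures, so p-values may measure technical spread only. Values are log2 ratios in the direction of these names (with over without zinc, pif1 over WT), with the median of each array at 0, and an error is the SD of 2 arrays unless called an SE. The log base and the direction were read from the values, since the labels do not give them.

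Values were held for 73.3% to 82.4% of the table's IDs per array and for 49 to 53 members. PIF1 was at −3.72 with zinc and −4.90 without zinc, as deposited, on the replicate 2 mutant arrays, and held placeholders on replicate 1. Of the genes deleted in BY4741, LEU2 had no value and MET17 a value on 1 array, while HIS3 had a value on 8 arrays and URA3 on 6. The heat shock gene HSP26 was at 3.35 and 3.31 on the pif1 zinc arrays and at 6.84 and 6.34 on the WT zinc arrays, a smaller response in pif1. On the mutant arrays it was nevertheless at 2.64 and 1.45 in those labelled with zinc and at −0.65 and −0.97 in those labelled without zinc. Another stress gene, HSP12, was at 2.19 and 2.74 on the pif1 zinc arrays and at 4.25 and 3.77 on the WT zinc arrays, and on the mutant arrays at 1.31 with zinc (1 array) and at −0.71 and −0.74 without zinc. Over all 3857 genes with a value on all arrays, the strain difference in zinc response from the zinc arrays and that from the mutant arrays correlated at r = −0.25, a description across genes. The zinc labels of the mutant arrays therefore go against the zinc arrays for both genes, and the strain difference that rests on those labels is also given with the labels exchanged.

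After zinc, transcripts of 8 small-subunit proteins fell in pif1 and those of 39 fell in WT. In pif1, 8 of the 48 members with a value on both arrays passed the test as lower (limma, adjusted p under 0.05 over all genes tested) and 0 as higher, and the median ratio was −0.32. In such bulk cultures, fewer cells with a transcript and less of it per cell cannot be told apart. Among all 4272 genes tested in pif1, 15.8% passed as lower and 15.5% as higher, so the members' share of 16.7% lay near that of all genes. With the replicate number as a block, 19 of 48 members (39.6%) passed as lower, against 22.1% of all genes. In WT, 39 of 51 members passed as lower and 0 as higher, with a median of −0.73, which is 0.602-fold. Among all 4635 genes tested in WT, 15.6% passed as lower and 14.7% as higher, and the members' share was 76.5%. With the block, 49 of 51 members (96.1%) passed as lower, against 22.1% of all genes. The median of all genes was 0.01 in pif1 and −0.002 in WT.

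The members moved as a narrow band. The distance between the lower and upper quartiles of their ratios was 0.299 in pif1, against 0.646 over all genes, and 0.187 in WT, against 0.632 over all genes. In pif1, 45 of 48 members had a mean below 0, and 25 (52.1%) lay below the lower quartile of all genes. In WT, 51 of 51 were below 0, each on both arrays, while 39.9% of all genes were below 0 on both, and 50 members (98.0%) lay below the lower quartile of all genes.

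The 2 arrays of a comparison placed this band at different heights. In pif1 the members' median was −0.05 on replicate 1 and −0.64 on replicate 2, and in WT it was −0.58 on replicate 1 and −0.90 on replicate 2. Replicate 2 was below replicate 1 in 44 of 48 members (91.7%) in pif1 and in 46 of 51 (90.2%) in WT, against 54.8% and 55.4% of all genes. The mutant arrays showed the same order, with replicate 2 below replicate 1 in 46 of 51 members with zinc and 39 of 50 without zinc (53.4% and 50.0% of all genes), although replicate 1 had the zinc-treated RNA in Cy5 on the zinc arrays and the pif1 RNA in Cy3 on the mutant arrays. The part of dye, culture or hybridisation in this shift was not tested. In pif1, 28 of 48 members (58.3%) were below 0 on both arrays and 0 were above 0 on both, while 32.0% of all genes were below 0 on both.

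**Figure D1:**
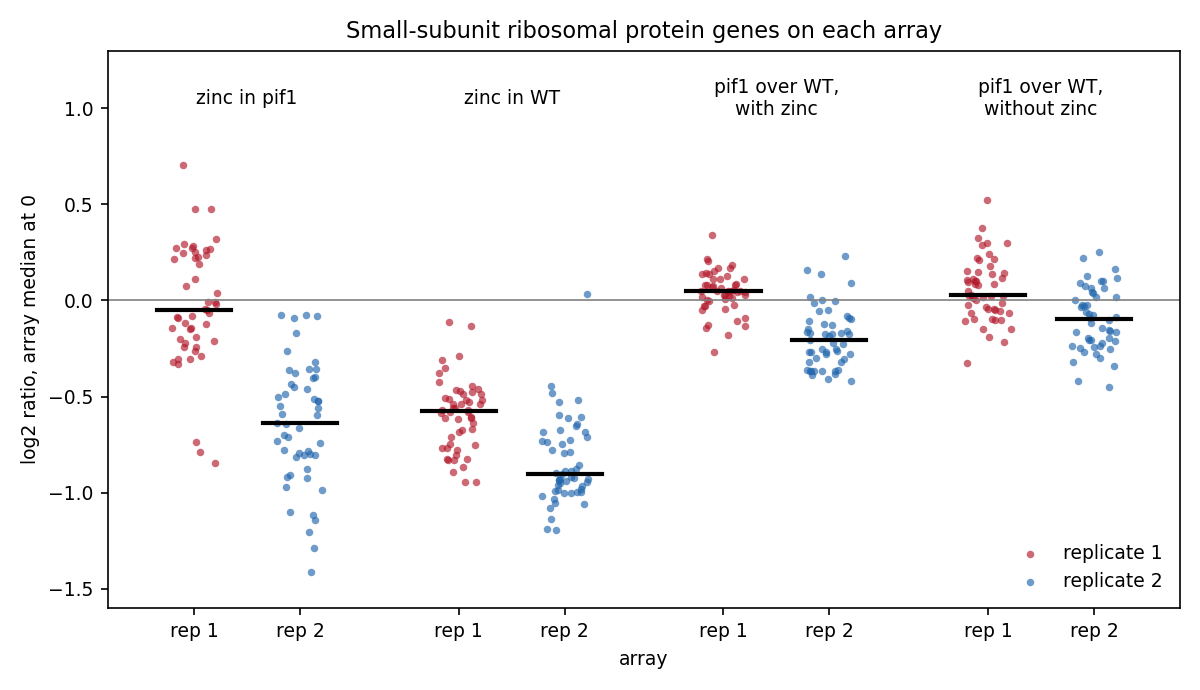
Log2 ratio of each small-subunit gene (points) on each of the 8 arrays, with the array median of all genes at 0; black bars are the members' medians, red is replicate 1 and blue is replicate 2. The members' median is −0.05 and −0.64 on the pif1 zinc arrays and −0.58 and −0.90 on the WT zinc arrays, and replicate 2 is the lower array in all 4 comparisons.

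In pif1, the strongest decrease was that of RPS0B, which encodes a body protein needed to mature the RNA of the subunit. RPS0B was at −0.85 and −1.21 on the 2 pif1 arrays, a mean of −1.03 ± 0.26 or 2.04-fold lower (adjusted p = 0.000969). Both arrays were below −0.5, which among the other 7 called members held for RPS6A alone. RPS6A, whose product is phosphorylated under TOR control, was at −0.74 and −0.52 (mean −0.63 ± 0.15, adjusted p = 0.00794).

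The other called members were much lower on replicate 2 of pif1 than on replicate 1. ASC1, the yeast counterpart of the signalling scaffold RACK1 on the back of the head, was at −0.33 and −1.41 (mean −0.87 ± 0.77, adjusted p = 0.0389). RPS0A, the copy of RPS0B, was at −0.27 and −1.14 (mean −0.70 ± 0.62, adjusted p = 0.0433). RPS1B, which encodes a platform protein near the exit of the mRNA, was at −0.30 and −0.97 (mean −0.64 ± 0.47, adjusted p = 0.0242). In each of these 3 genes replicate 1 was below 0, but less than halfway to replicate 2.

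RPS11B, RPS19B and RPS18A completed the set. RPS11B, which encodes a body protein, was at −0.30 and −0.88 (mean −0.59 ± 0.41, adjusted p = 0.0226). RPS19B, which encodes a head protein needed for the maturation of the subunit, was at −0.24 and −0.80 (mean −0.52 ± 0.40, adjusted p = 0.0472). RPS18A, which encodes a head protein that faces the large subunit, was at −0.24 and −0.78 (mean −0.51 ± 0.38, adjusted p = 0.039). These genes had the same order of arrays as ASC1, with replicate 2 the lower.

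A low mean did not always pass in pif1. RPS2, which encodes a protein of the mRNA entry that affects decoding accuracy, was at −0.01 and −1.29 (mean −0.65 ± 0.91, adjusted p = 0.115, and 0.0115 with the block). RPS9B, which encodes another accuracy protein, was at −0.08 and −1.10 (mean −0.59 ± 0.72, adjusted p = 0.0793, and 0.015 with the block). Both sat near 0 on replicate 1. At the top of the order, RPS28B was at 0.70 and −0.36, a mean of 0.17, RPS29A had a mean of 0.05, RPS30B of 0.02 and RPS27A of −0.01, and none of the 4 passed.

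The pif1 count depends on the scaling and the block, and the members' level on the array. With all arrays scaled to 1 spread the count was 1 (RPS0B), and the share of all genes in that fit is not given here. The members' median was −0.05 on replicate 1 of pif1 and −0.64 on replicate 2. Counts with an array left out appear only in the last section. No conclusion is drawn from them, since a comparison with 1 array has no spread of its own.

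In WT, the lowest member was RPS9B, at −0.89 and −1.14 (mean −1.01 ± 0.17, 2.02-fold lower, adjusted p = 0.0109). Next came RPS21A, which encodes a body protein, at −0.67 and −1.20 (mean −0.93 ± 0.37, adjusted p = 0.0294), and ASC1, at −0.83 and −0.97 (mean −0.90 ± 0.10, adjusted p = 0.0356). All 6 of these values were below −0.6, on replicate 1 as on replicate 2.

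RPS11B was at −0.87 and −0.92 in WT (mean −0.90 ± 0.04, adjusted p = 0.00388), and RPS0B at −0.81 and −0.98 (mean −0.89 ± 0.12, adjusted p = 0.00194). RPS7B, which encodes a body protein, was at −0.83 and −0.94 (mean −0.89 ± 0.07, adjusted p = 0.00568). The 2 copies of RPS6 were nearly equal, with RPS6B at −0.77 and −1.0 (mean −0.88 ± 0.16, adjusted p = 0.00355) and RPS6A at −0.82 and −0.94 (mean −0.88 ± 0.08, adjusted p = 0.0017). In these genes the arrays differed by less than 0.25.

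The smallest WT decreases were those of RPS28B, at −0.11 and −0.48 (mean −0.30 ± 0.26, adjusted p = 0.373), RPS29A (mean −0.37 ± 0.34), RPS27A (−0.41 ± 0.17) and RPS30B (−0.41 ± 0.14). None of these 4 passed, and they are also the 4 highest members in pif1. The other 8 members that did not pass in WT were RPS7A, RPS13, RPS14B, RPS21B, RPS22A, RPS25A, RPS26A and RPS29B, with means between −0.82 and −0.52. With the block, RPS27A and RPS28B were the only members tested in WT that did not pass. With all arrays scaled to 1 spread, 21 members passed as lower in WT, and the share of all genes in that fit is not given here.

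**Figure D2:**
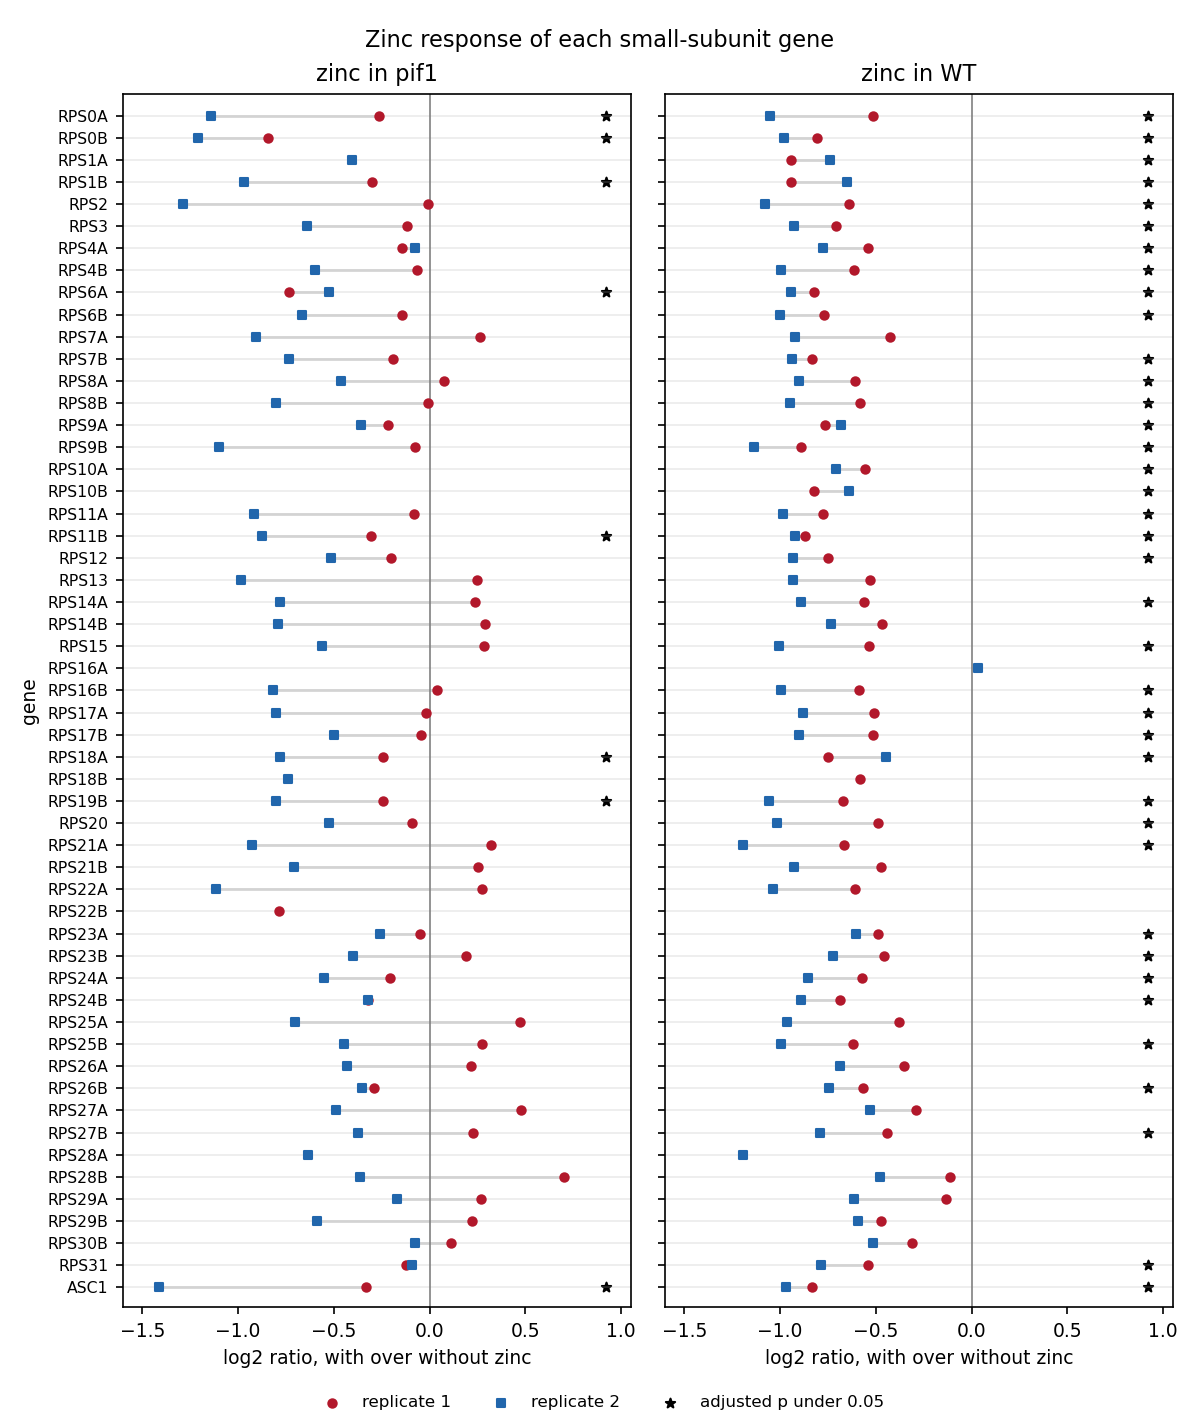
Zinc response of each of 54 members in pif1 (left) and WT (right); red circles are replicate 1, blue squares are replicate 2, a grey line joins them, and a star marks an adjusted p under 0.05. In WT both symbols of every tested member lie left of 0, while in pif1 28 of 48 red circles and 50 of 50 blue squares do.

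Across the 48 members tested in both strains, the mean responses in pif1 and WT correlated (r = 0.76, rho = 0.76), a description across genes that share the arrays' spots and are not independent replicates. The order of the members repeated less well between the 2 arrays of one strain, with r = 0.17 in pif1 (rho = 0.08) and r = 0.38 in WT (rho = 0.37). Between strains it was closer for arrays of the same number (r = 0.72 for replicate 1 and 0.57 for replicate 2) than across numbers (r = 0.20 for pif1 replicate 1 with WT replicate 2, and 0.48 for pif1 replicate 2 with WT replicate 1). The part of what arrays of 1 number share in the correlation of the means was not tested. All 8 members called in pif1 were also called in WT, 28 were called in WT alone, and 0 in pif1 alone. The same overlap was not counted over all genes. A call in 1 strain alone is not a difference between the strains, and 0 of the 48 members passed a test of that difference.

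The members were also grouped by place in the subunit and by copy number. Of the head genes, 3 of 17 passed as lower in pif1 (median −0.27) and 15 of 19 in WT (median −0.71). Of the body and platform genes, 5 of 31 passed as lower in pif1 (median −0.32) and 24 of 32 in WT (median −0.76). Genes with 1 copy gave 1 of 9 lower in pif1 (median −0.36) and 8 of 9 in WT (median −0.77), and members of a pair gave 7 of 39 lower in pif1 (median −0.32) and 31 of 42 in WT (median −0.73). With the block, 7 head genes, 12 body and platform genes, 4 genes with 1 copy and 15 of a pair passed as lower in pif1, and 18, 31, 9 and 40 did in WT. The shares of all genes that passed as lower were 15.8% in pif1 and 15.6% in WT, and 22.1% in each with the block. No difference between these groups was tested.

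Among the head genes with 1 copy, 1 of 7 passed as lower in pif1 (median −0.31) and 7 of 7 in WT (median −0.77), and with the block 3 and 7 did. The one that passed in pif1 was ASC1, given above. RPS3, which encodes a protein of the mRNA entry, was at −0.12 and −0.64 in pif1 (mean −0.38 ± 0.37, adjusted p = 0.0968, and 0.03 with the block) and at −0.71 and −0.93 in WT (mean −0.82 ± 0.16, adjusted p = 0.00522). RPS15, whose product is needed to export the precursor of the subunit, was at 0.28 and −0.56 in pif1 (mean −0.14 ± 0.60, adjusted p = 0.666) and at −0.54 and −1.004 in WT (mean −0.77 ± 0.33, adjusted p = 0.0267). RPS3 and RPS15 are shown as examples of these genes and were chosen after their values were seen.

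Zinc-binding members, which hold a zinc ion in a cysteine motif, are RPS26A, RPS26B, RPS27A, RPS27B, RPS29A, RPS29B and RPS31. Of these, 0 of 7 passed as lower in pif1 (median −0.11) and 3 of 7 in WT (median −0.53). Of the other members, 8 of 41 passed as lower in pif1 (median −0.36) and 36 of 44 in WT (median −0.77). With the block, 0 of 7 zinc-binding members passed as lower in pif1 and 6 of 7 in WT, against 19 of 41 and 43 of 44 of the other members. Among all genes tested, 15.8% passed as lower in pif1 and 15.6% in WT, and 22.1% in each strain with the block. Without the block, the other members' share in pif1, 19.5%, lay near that of all genes. The difference between zinc-binding and other members was not tested.

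RPS31, which encodes ubiquitin fused to a head protein, was at −0.12 and −0.09 in pif1 (mean −0.11 ± 0.02, adjusted p = 0.592) and at −0.54 and −0.79 in WT (mean −0.66 ± 0.18, adjusted p = 0.00911). RPS26B, whose product lies at the mRNA exit, was at −0.29 and −0.36 in pif1 (mean −0.32 ± 0.05, adjusted p = 0.0955) and at −0.57 and −0.75 in WT (mean −0.66 ± 0.13, adjusted p = 0.00661). RPS27B was at 0.23 and −0.38 in pif1 (mean −0.07 ± 0.43, adjusted p = 0.782) and at −0.44 and −0.79 in WT (mean −0.62 ± 0.25, adjusted p = 0.0287). These are the 3 zinc-binding members that passed in WT without the block.

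Their copies and the RPS29 pair did not pass in either strain without the block, and all of them but RPS27A passed in WT with it. RPS26A had a mean of −0.11 ± 0.46 in pif1 and −0.52 ± 0.23 in WT, and RPS27A of −0.01 ± 0.68 in pif1 and −0.41 ± 0.17 in WT. RPS29A, which encodes a small head protein, had a mean of 0.05 ± 0.31 in pif1 and −0.37 ± 0.34 in WT, and RPS29B of −0.19 ± 0.57 in pif1 and −0.53 ± 0.09 in WT.

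Gene length moved with the same order. The genes' span in the annotation, introns included, correlated with the zinc response at r = −0.65 in pif1 (48 members) and r = −0.50 in WT (51 members), so that shorter genes were less lowered. Of the 10 members with a span of 400 bases or less, 4 are zinc-binding. The tested members of that span had medians of −0.15 in pif1 and −0.53 in WT where zinc-binding (4 genes), and of −0.11 in pif1 and −0.75 in WT otherwise (5 genes). Longer members had medians of −0.07 in pif1 and −0.62 in WT where zinc-binding (3 genes), and of −0.37 in pif1 and −0.77 in WT otherwise (36 and 39 genes). The part of length in the zinc-binding values was not tested.

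The ubiquitin gene UBI4, which encodes a string of ubiquitins and no ribosomal protein, went the other way from RPS31. It rose by 1.25 and 1.13 in pif1 (mean 1.19 ± 0.09, adjusted p = 0.000969) and by 1.52 and 2.13 in WT (mean 1.83 ± 0.43, adjusted p = 0.000108). RPL40A and RPL40B, which encode ubiquitin fused to a large-subunit protein, did not rise: RPL40A had a mean of −0.11 in pif1 (adjusted p = 0.731) and fell in WT (mean −0.66, adjusted p = 0.0367), and RPL40B, tested in WT alone, fell there (mean −0.71, adjusted p = 0.0192).

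Protein genes of the large subunit had medians close to those of the small subunit. In pif1, 14 of 73 passed as lower with a median of −0.34, and in WT 58 of 76 passed as lower and 1 as higher with a median of −0.74. Their share of 19.2% lower in pif1 lay near the 15.8% of all genes, and in WT it was 76.3%, against 15.6%. With the block, 31 passed as lower in pif1 and 72 in WT. Their ratios formed a narrow band too, with 0.256 between the quartiles in pif1 and 0.189 in WT. Replicate 2 was below replicate 1 in 67 of 73 in pif1 and in 67 of 76 in WT, as among the small-subunit members. The gene that passed as higher in WT, RPL36A, is among the IDs of a stretch of the table described below.

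Assembly factors of the small subunit, which fold and cut its precursor RNA, showed a larger spread. In pif1, 16 of 28 passed as lower and 0 as higher (median −0.56), and in WT 17 of 28 passed as lower and 0 as higher (median −0.74). The lower shares were 57.1% and 60.7%, against 15.8% and 15.6% of all genes. The block gave 19 lower in each strain. PRP43, a helicase of ribosome assembly and splicing, fell by 1.84 and 1.63 in pif1 (mean −1.74 ± 0.15, adjusted p = 6.45e-05) and by 1.25 and 1.41 in WT (mean −1.33 ± 0.12, adjusted p = 0.000187). NOP14, ENP1 and TSR1 passed as lower in both strains too, with means of −1.46, −1.13 and −1.07 in pif1 and −1.24, −1.01 and −1.04 in WT. The median of this list was −0.53 on each of the 2 pif1 arrays, where the members' medians were −0.05 and −0.64.

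A list of initiation factors that work on the small subunit, with related genes, gave 9 of 14 lower in pif1 (median −0.56) and 11 of 14 lower in WT (median −0.58), with 0 higher in both. The lower shares were 64.3% and 78.6%, against 15.8% and 15.6% of all genes. The block gave 10 lower in pif1 and 12 in WT. The list also holds RLI1, STM1, GCN2 and GCN4, which are not initiation factors. Without these 4, left out after the values were seen, 7 of 12 passed as lower in pif1 (median −0.51) and 8 of 11 in WT (median −0.49). RLI1, an iron-sulfur ATPase that recycles subunits, had means of −1.29 ± 0.25 in pif1 (adjusted p = 0.000562) and −1.61 ± 0.17 in WT (adjusted p = 0.000163). The eIF3 subunits PRT1 and NIP1 had means of −1.27 and −1.26 in pif1 and −0.83 and −0.90 in WT, and all 4 values passed.

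Among regulators of ribosomal protein genes, 4 of 10 passed as lower in pif1 (median −0.48) and 3 of 13 in WT (median −0.19), with 0 higher. The lower shares were 40% and 23.1%, against 15.8% and 15.6% of all genes. With the block, 6 passed as lower and 1 as higher in pif1, and 5 as lower and 2 as higher in WT. The kinase gene SCH9 had means of −0.84 ± 0.09 in pif1 (adjusted p = 0.00338) and −0.45 ± 0.01 in WT (adjusted p = 0.0476). RAP1, the main activator, had means of −0.73 ± 0.11 in pif1 (adjusted p = 0.00398) and −0.46 ± 0.02 in WT (adjusted p = 0.0293). The activators FHL1, IFH1 and SFP1, named here for their role, did not pass in either strain (with the block, FHL1 did in pif1, adjusted p = 0.0244), with means of −0.39, −0.26 and −0.03 in pif1 and −0.20, −0.19 and −0.12 in WT. TOD6, which encodes a repressor, was tested in WT alone and fell there (mean −1.13 ± 0.15, adjusted p = 0.00422). DOT6 (−0.15 and −1.33, mean −0.74) and MRS6 (mean −0.71) also passed as lower in pif1. In WT neither passed without the block (means 0.08 and −0.35). MRS6 passed as lower there with the block (limma adjusted p = 0.0336), and DOT6 did not (adjusted p = 0.764). HMO1 went the other way, with means of 0.40 in pif1 and 0.41 in WT. It passed as higher only with the block (limma adjusted p = 0.0271 and 0.0254), as did STB3 in WT (mean 0.37, adjusted p = 0.0389).

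**Figure D3:**
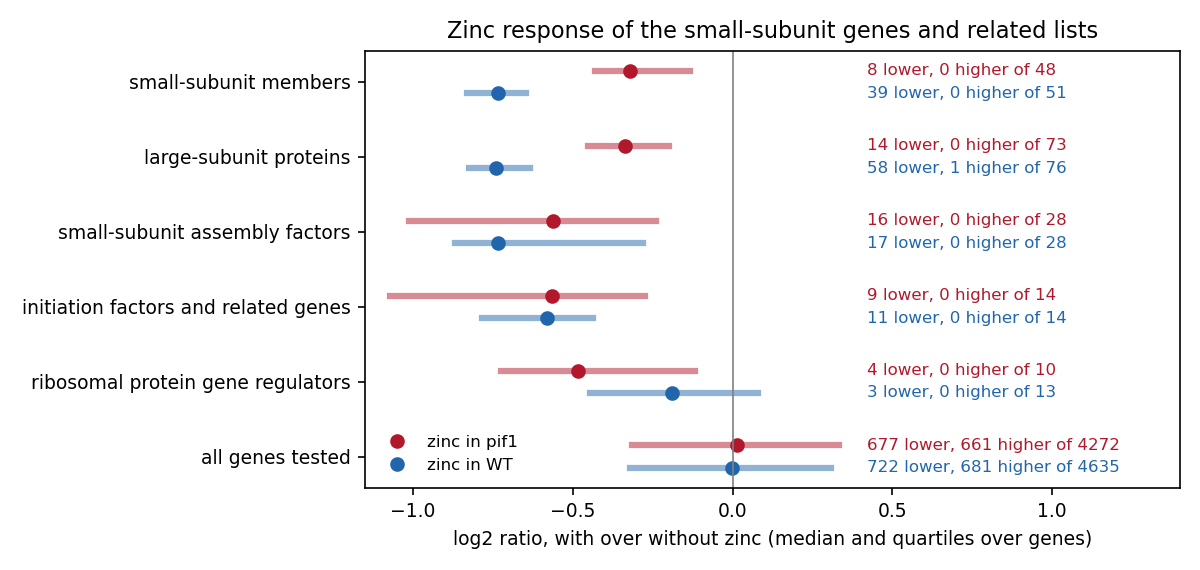
Median (point) and quartiles (bar) of the zinc response over the genes of each list, in pif1 (red, above) and WT (blue, below), with the numbers of genes past the threshold at the right. The 2 ribosomal protein lists lie at −0.32 and −0.34 in pif1 and at −0.73 and −0.74 in WT, while the assembly and initiation lists lie near −0.56 in pif1 and at −0.74 and −0.58 in WT.

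On the zinc arrays the members' median response was smaller in pif1 than in WT, but no member's difference passed the test. The response in pif1 minus that in WT was above 0 in 47 of 48 members, with a median of 0.42 against 0.02 over all 4086 genes tested, of which 1966 lay below 0. It was not particular to the small subunit: the large-subunit proteins had a median of 0.40, with 2 of 73 below 0. In the limma contrast 0 members passed as higher and 0 as lower, while 0.0734% of all genes passed as higher and 0.196% as lower. At an unadjusted p under 0.05, 8 members (16.7%) were higher and 0 lower, while 11.5% of all genes passed that level in either direction and 3.82% as higher.

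RPS25B, whose product is used by internal initiation sites of viruses, had the largest difference, 0.72 with an SE of 0.26 (adjusted p = 0.339). It was at 0.27 and −0.45 in pif1 and at −0.62 and −0.997 in WT, so that both pif1 arrays lay above both WT arrays. RPS15 (0.63), RPS21A (0.63) and RPS8A (0.56) followed, and none of them passed. At the other end were RPS0B (−0.13), ASC1 (0.03), RPS0A (0.08) and RPS18A (0.08), all of them among the 8 called as lower in pif1. The difference contains the pif1 mean on which those 8 were called, so this overlap is partly built in.

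The difference was larger on replicate 1. Between arrays of the same number, pif1 lay above WT in 47 of 48 members on replicate 1 (median difference 0.58) and in 39 of 48 on replicate 2 (median difference 0.26). Replicate 1 of pif1 lay above both WT arrays in 47 of 48 members, and replicate 2 of pif1 lay above both WT arrays in 20 of 48. These counts by replicate were not made over all genes. The median difference was 0.09 without replicate 1 of pif1 and 0.72 without replicate 2 of pif1.

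The mutant arrays give a second estimate of the same difference, pif1 over WT with zinc minus pif1 over WT without zinc. Over the 46 members with a value on all 8 arrays its median was −0.06, with 12 members (26.1%) above 0, while the zinc arrays gave 0.42, with 45 members above 0. Of all 3857 such genes, 50.4% were above 0 on the mutant arrays and 52.8% on the zinc arrays. The 71 large-subunit proteins measured on all arrays had medians of −0.075 on the mutant arrays and 0.40 on the zinc arrays. With the zinc labels of the mutant arrays exchanged the median was 0.06, with 34 members above 0. RPS25B was at −0.16 on the mutant arrays and 0.72 on the zinc arrays. The 2 estimates had opposite signs in 35 of the 46 members with the labels as given and in 11 with the labels exchanged. The median of their mean was 0.16 with the labels as given and 0.23 with the labels exchanged.

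**Figure D4:**
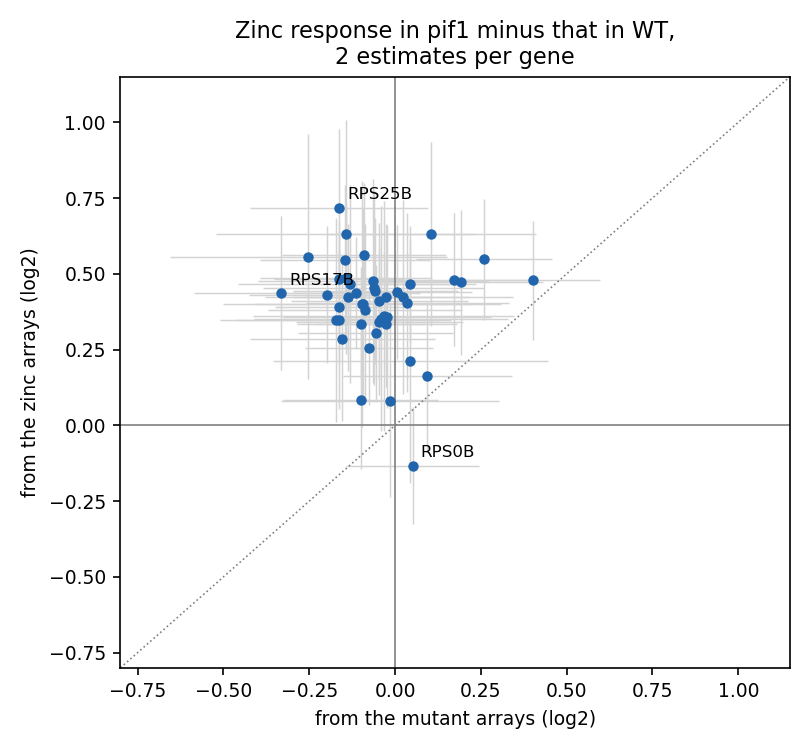
Zinc response in pif1 minus that in WT for each of 46 members, estimated from the zinc arrays (vertical axis) and from the mutant arrays (horizontal axis), in log2 units, with bars of 1 SE and a dotted line of equality. Of these members 45 lie above 0 on the vertical axis and 12 lie right of 0 on the horizontal axis.

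Direct comparison of the mutant with the wild type gave no call among the members in either medium. With zinc, 0 of 51 members passed in either direction (median −0.10), while 0.193% of all 4657 genes tested passed as lower and 0.988% as higher. Without zinc, 0 of 50 passed (median −0.02), while 0.593% of all 4722 genes passed as lower and 1.44% as higher. If the labels were exchanged, the values given here and below for pif1 over WT with zinc would be those without zinc, and the reverse. At an unadjusted p under 0.05 the limma counts of members were 0 in both, against 9.81% of all genes with zinc and 14.6% without zinc.

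With zinc, the lowest members were RPS1A, at −0.27 and −0.30 (mean −0.28, adjusted p = 0.595), RPS18B (−0.22), RPS14B (−0.21) and RPS7A (−0.20). Among the highest were RPS31, at 0.17 and 0.09 (mean 0.13, adjusted p = 0.957), RPS4B (0.09) and RPS4A (0.09). None of these 7 was further than 0.3 from 0.

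Without zinc, the lowest included RPS1A, at −0.32 and −0.16 (mean −0.24, adjusted p = 0.488), RPS1B (−0.24) and RPS0B (−0.23). The highest were RPS25A, at 0.52 and 0.04 (mean 0.28, adjusted p = 0.735), RPS27B (0.20), RPS25B (0.20) and RPS30B (0.20). RPS1A was thus among the lowest members in both media.

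RPS1B lies near the deleted gene, with only MFT1 between it and PIF1 in the order of locus tags. It was at −0.11 and −0.18 with zinc (mean −0.14, adjusted p = 0.979) and at −0.15 and −0.32 without zinc (mean −0.24, adjusted p = 0.619). Its copy RPS1A lies elsewhere and had similar values, given above. OGG1, on the other side of PIF1, was between −1.75 and −1.05 as deposited on the 4 mutant arrays.

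The A and B copies of a pair had similar zinc responses, but the members as a whole lay close together too. The quartiles of all members were 0.299 apart in pif1 and 0.187 apart in WT, and differences between members of different pairs were not measured. The median size of the difference between copies was 0.14 over 16 pairs in pif1 and 0.12 over 18 pairs in WT, and A and B correlated at r = 0.74 in pif1 and r = 0.62 in WT across pairs. The difference had the same sign on both arrays in 3 of 16 pairs in pif1 and 10 of 18 in WT. Copies are nearly identical in sequence, and signal shared between their spots was not tested.

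RPS9 and RPS29 were among the 5 most unequal pairs of both strains. RPS9A minus RPS9B was −0.14 and 0.74 in pif1 (mean 0.30 ± 0.62) and 0.13 and 0.45 in WT (mean 0.29 ± 0.23). RPS29A minus RPS29B was 0.05 and 0.42 in pif1 (mean 0.23 ± 0.26) and 0.34 and −0.02 in WT (mean 0.16 ± 0.25). The sign changed between arrays for RPS9 in pif1 and for RPS29 in WT.

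RPS0A minus RPS0B was 0.58 and 0.07 in pif1 (mean 0.32 ± 0.36), the largest difference there. RPS6A minus RPS6B was −0.59 and 0.14 in pif1 (mean −0.23 ± 0.52), and RPS4A minus RPS4B was −0.08 and 0.52 (mean 0.22 ± 0.42). Of these 3, RPS0 alone kept its sign.

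In WT, RPS21A minus RPS21B was −0.19 and −0.27 (mean −0.23 ± 0.05), and RPS27A minus RPS27B was 0.15 and 0.26 (mean 0.21 ± 0.08). RPS7A minus RPS7B was 0.41 and 0.01 (mean 0.21 ± 0.28). The RPS21 and RPS27 differences were larger than their SD, and the RPS7 difference was smaller.

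**Figure D5:**
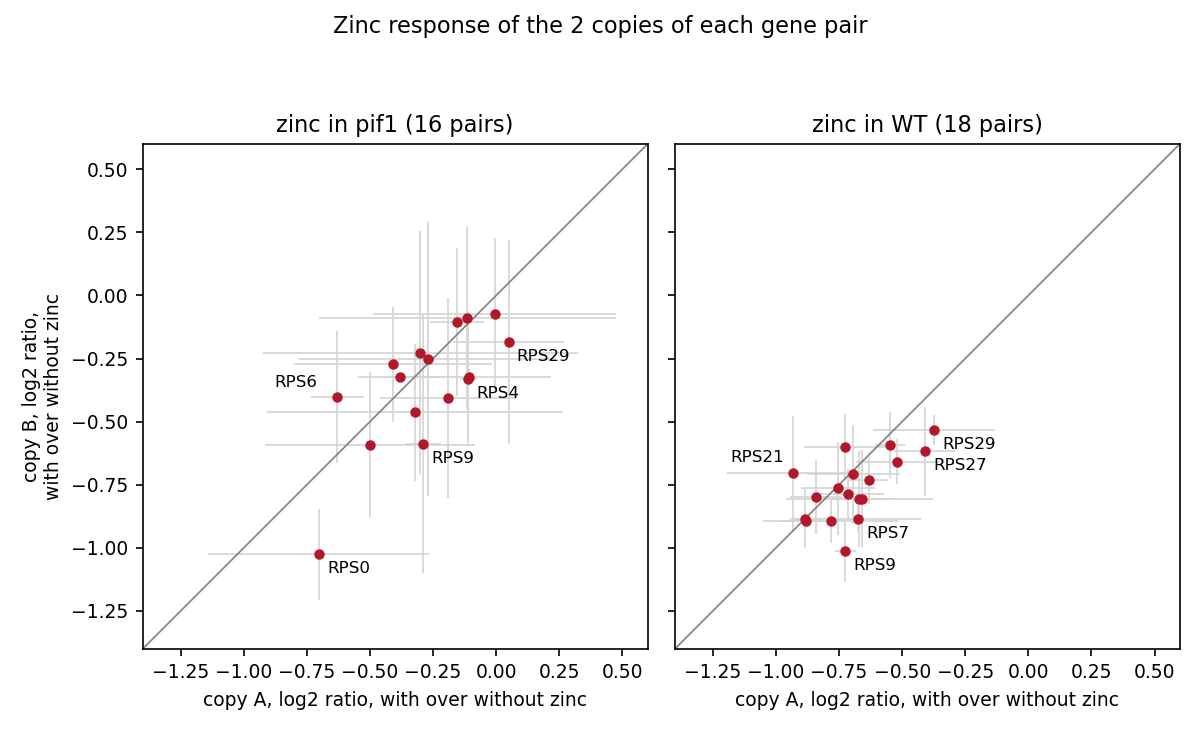
Mean zinc response of copy A (horizontal axis) and copy B (vertical axis) of each gene pair in pif1 (left, 16 pairs) and WT (right, 18 pairs), in log2 ratios; grey bars reach to the 2 arrays and the line marks equality. The 5 pairs with the largest difference are named in each panel.

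A stretch of the table needs care for RPS10B, whose product lies at the beak of the head. Over 75 IDs of chromosome XIII, the strains' zinc responses correlated at r = −0.08 across 40 genes as deposited and at r = 0.91 across 51 genes when each WT value was set against the next ID, compared with r = 0.82 across 4046 genes outside the stretch. RPS10B is the only member within it. It had values on the WT zinc arrays only, at −0.83 and −0.64 (mean −0.73 ± 0.13, adjusted p = 0.0177), and had none there when the stretch was moved by 1 ID. If each WT value belongs to the next ID, these are not values of RPS10B. As deposited, they are counted above among the 39 members called as lower in WT and the 49 called with the block. They also enter the WT counts of head genes and of members of a pair. Its copy RPS10A, outside the stretch, was at −0.56 and −0.71 in WT (mean −0.63 ± 0.11, adjusted p = 0.0123) and had no value on the pif1 zinc arrays.

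Members without a value on both arrays of a zinc comparison were not tested there. RPS28A was at −0.64 on 1 pif1 array and −1.19 on 1 WT array, and RPS18B at −0.74 on 1 pif1 array and −0.58 on 1 WT array. RPS1A was at −0.40 on replicate 2 of pif1. RPS22B was at −0.79 on replicate 1 of pif1, its only value, and RPS16A at 0.04 on replicate 2 of WT, its only value. Of these, RPS16A alone lay above 0.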

How the data were processed

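The authors deposited a table of log2 ratios, 8 columns for 8 arrays. Per the labels, cDNA was primed with oligo(dT) on 8 ug of total RNA, and the authors dropped spots narrower than 120 um or dimmer than 100 units in Cy3 and Cy5. How the scans were read, corrected and normalized, and the log base, are not given in the sources used here. Base 2 was taken from the size of the values. The direction was taken as first-named over second-named RNA, from PIF1 on the mutant arrays and HSP26 and HSP12 on the zinc arrays. The authors' centring stays unknown; column medians lay between −0.064 and 0.0745. The lowest correlation between arrays was −0.365 across 3857 genes, between pif1 over WT without zinc, replicate 2, and zinc in WT, replicate 1.

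Symbols came from NCBI's R64 gene table by locus tag, which matched 5662 of 6212 IDs. Each array was centred on its median, and the 2 PIF1 entries larger than 16 in size were treated as missing. The test was limma's moderated one (limma 3.58.1, R 4.3.3) in a fit of all 8 arrays with a term for each comparison and a shared spread. Genes measured on both arrays of the comparison entered the Benjamini-Hochberg adjustment, and the threshold was 0.05. The strain difference was a contrast of the zinc arrays. Same-numbered arrays deviated together over all genes (r from 0.393 to 0.510 over 6 pairs of comparisons), although the labels give the numbers no shared source, so counts of members and their groups in the zinc comparisons are also given with the replicate block. With 2 arrays per comparison, their number limits the precision.

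Members and lists were chosen with earlier results of these data known. All members were counted, and 1 is not reported here by name. Values were given by a rule: the 8 lowest and 4 highest in each zinc comparison, the 4 lowest and 4 highest in the others, every called member where 10 or fewer were called, the zinc-binding members, ASC1, RPS1 and RPS10 copies, and the 5 most unequal pairs. Alternatives were no centring, scaling arrays to 1 spread (by their median absolute value), 1 common distribution, each comparison alone, a dye term, a replicate block, genes on all arrays, the table stretch moved or left out, and leaving out arrays. The single zinc arrays left out and the exchanged labels were added after seeing the data. No sequences were used here.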

Additional observations from a re-analysis of the deposited data

Results flagged for a closer look

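In RPS6B and RPS12, pif1 over WT lay on opposite sides of 0 with and without zinc on every mutant array. RPS6B was above 0 with zinc and below 0 without, a difference of 0.17, and RPS12 went the opposite way, with −0.16. A limma contrast on the mutant arrays gave unadjusted p-values of 0.457 and 0.416 and an adjusted p of 1 for each, so neither of these differences passed. They rest on the zinc labels of the mutant arrays, and exchanging the labels turns their signs.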

How the results depend on the processing

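The count of members lower after zinc in pif1 was 8. It was 5 without centring, 1 with arrays scaled to 1 spread, 1 with 1 common distribution, 2 with the pif1 zinc arrays fitted alone, and 3 to 28 with an array left out, where the count of higher members was 0 to 1. The WT count of 39 was 21 with arrays scaled, 20 with 1 distribution, and 2 to 11 with an array left out. The counts with an array left out rest on a comparison with 1 array, which has no spread of its own. No conclusion is drawn from these counts. RPS0B in pif1 kept its call without centring, with arrays scaled or given 1 distribution, with a dye term and with the block. RPS6A did so in WT and is 1 example there. Of the 39 WT calls, 21 were kept with arrays scaled and 20 with 1 distribution. A dye term kept 38, and no centring and the block kept 39 each. The median strain difference of 0.42 was −0.0625 from the mutant arrays alone, 0.0625 with their labels exchanged, 0.16 as the mean of both estimates (0.23 with the labels exchanged), and 0.0855 to 0.718 with an array left out. The median size of the difference between copies, 0.14 in pif1, was 0.0895 with arrays scaled and 0.172 to 0.196 with an array left out; in WT it was 0.12, and 0.066 to 0.12 with an array left out. The cause was not tested. Of the values under alternatives of the members named by the rule, which are not all members, 999 kept their side of the threshold, 68 lost and 21 gained it, and 0 reversed. With the replicate block, 19 members were lower in pif1 and 49 in WT. The ratios carry no signal over background beyond the authors' minimum of 100 units.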
